A study of Mus musculus with 8 samples.

Results

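Homeostatic microglia were the 982 nuclei to which the study's own annotation of microglia and macrophages gave the subtype "Homeostatic". They made up 42.9% of the 2291 annotated microglia and macrophage nuclei and 1.59% of all 61949 nuclei of the experiment. The other subtypes in that annotation were 586 amyloid-DAM, 248 myelin-DAM, 270 MyTE and 205 macrophage nuclei, where DAM stands for disease-associated microglia and MyTE for microglia rich in myelin transcripts. The subtype had been assigned by clustering the same counts that are described here, so levels in homeostatic microglia beside those in other subtypes are given without a test.

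The experiment profiled single nuclei of brain hemispheres, without cerebellum and olfactory bulb, from mice aged 6 months, to ask how a myelin defect changes the brain's response to amyloid. All mice were of the C57BL6/J strain, and 4 genotypes were studied with 2 libraries each. WT mice carried neither alteration. Cnp-/- mice lacked CNP, an enzyme of myelin and oligodendrocytes. 5xFAD mice carried human transgenes with familial Alzheimer's disease mutations, mutant APP among them, under neuronal Thy1 promoter elements, and develop amyloid plaques. Cnp-/-;5xFAD mice combined both. A general statement of the methods has 2 mice pooled per single-cell replicate and only females in crosses with Cnp-/-, but the account of these 6-month libraries does not repeat it. The p-values of the gene tests measure the spread between 2 libraries per genotype, whatever mice they held. The tests of abundance relabel all libraries, so an effect of the other mutation adds to the spread they measure against.

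Microglia are the resident macrophages of the brain parenchyma. In the undisturbed brain they survey their surroundings with motile processes, depend on signalling through the receptor CSF1R for survival, and express a set of receptors such as P2RY12, which senses nucleotides released by damaged cells, and CX3CR1, which binds the neuronal chemokine fractalkine. Near amyloid plaques or damaged myelin they lower part of this set and take on the DAM state, with genes of lipid handling, lysosomes and phagocytosis.

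The homeostatic nuclei held 1233347 unique molecular identifiers (UMIs, each 1 captured transcript), with a median of 1159.5 per nucleus. WT gave 155 and 48 nuclei with 206296 and 79010 UMIs in replicates 1 and 2. Cnp-/- gave 106 and 64 nuclei with 123359 and 80753 UMIs. 5xFAD gave 199 and 150 nuclei with 246936 and 172417 UMIs. Cnp-/-;5xFAD gave 123 and 137 nuclei with 176528 and 148048 UMIs. WT 2 was thus the smallest library by nuclei and by UMIs, and its values carry the largest counting error. No 2 libraries shared a barcode among these nuclei. Levels below are counts per 1000000 UMIs (CPM) of the summed homeostatic nuclei of a library, and in bulk sums of this kind fewer expressing nuclei and less RNA per nucleus cannot be told apart unless shares of nuclei are given.

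The genotypes were checked on Cnp itself. In mature oligodendrocytes, Cnp ranged from 219 to 321 CPM without Cnp loss and from 23.1 to 32.8 CPM with it (4 libraries each). Homeostatic microglia held at most 9 Cnp UMIs per library and check nothing. App was at 371 to 419 CPM in neurons, with overlapping genotypes, and so does not check the transgenes.

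No difference in the abundance of homeostatic nuclei passed the test, which could not have given an adjusted p under 0.05 with these libraries. The mean with the 5xFAD transgenes was higher per 1000 nuclei but lower as a share of microglia and macrophages. WT 1 and WT 2 held 18.9 and 7.06 homeostatic nuclei per 1000 nuclei, Cnp-/- 13.2 and 7.25, 5xFAD 26.8 and 20.8, and Cnp-/-;5xFAD 17.6 and 16.2. The mean was 20.3 ± 4.69 per 1000 (SD, n = 4) with the transgenes and 11.6 ± 5.63 (SD, n = 4) without, a difference of 8.73 (two-sided exact permutation test over 70 relabellings, p = 0.0857, adjusted p = 0.152). The ranges overlapped, because WT 1 lay above both Cnp-/-;5xFAD libraries. With 1 library left out the difference ran from 6.59 (without 5xFAD 1) to 11.2 (without WT 1). Leaving out WT 1 removes the overlap and so sets the exact permutation p at 0.0286, the smallest that 3 against 4 libraries allow. Per 1000 nuclei that are not neurons, WT 1 had the highest of the 8 values, at 74.1, against 66.9 and 72.0 in 5xFAD and 60.4 in both Cnp-/-;5xFAD libraries. Among nuclei of at least 1000 UMIs, WT 1 held 14.5 homeostatic nuclei per 1000, above 3 of the 4 transgenic libraries.

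As a share of microglia and macrophage nuclei, homeostatic nuclei were 77.9% and 68.6% in WT, 39.0% and 46.7% in Cnp-/-, 40.4% and 44.1% in 5xFAD, and 30.4% and 36.3% in Cnp-/-;5xFAD. Both WT libraries lay above the other 6, which ran from 30.4% to 46.7%. The share was 20.2 percentage points lower with the 5xFAD transgenes (exact permutation p = 0.0857, adjusted p = 0.152) and 19.6 points lower with Cnp loss (exact permutation p = 0.114, adjusted p = 0.152). The shares of 5xFAD and Cnp-/- overlapped. The 5xFAD difference ran from −26.6 points (without Cnp-/- 1) to −13.6 (without WT 1). Leaving out Cnp-/- 1 removes the overlap and so sets the exact permutation p at 0.0286. Per 1000 nuclei, Cnp loss gave a difference of −4.79 (13.6 ± 4.59 against 18.4 ± 8.25, SD, n = 4 each, exact permutation p = 0.343). All 4 adjusted values missed 0.05, and 4 against 4 libraries allow no p below 0.0286. Within 1 measure, Cnp loss and 5xFAD cannot both reach that p. After adjustment over 4 comparisons no value could therefore have passed 0.05, and the missed threshold does not speak against a difference. Both measures depend on how many other nuclei were captured, the share on the other microglial subtypes and macrophages and the number per 1000 on every cell class.

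**Figure D1:**
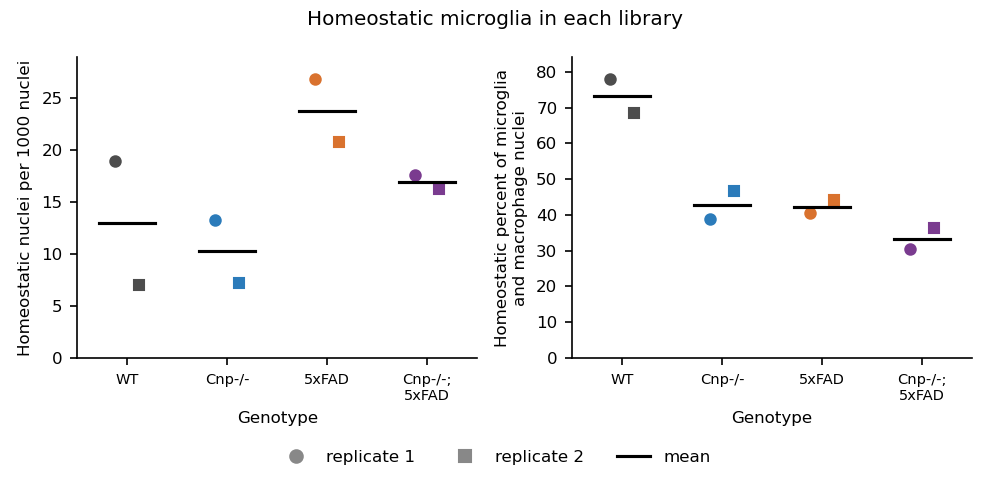
Homeostatic nuclei per 1000 nuclei of the library (left, y axis) and as a percent of microglia and macrophage nuclei (right, y axis), by genotype on the x axis. Each point is 1 library and each line the mean of 2; the number per 1000 is highest in 5xFAD 1 at 26.8, while the percent is highest in WT 1 at 77.9.

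The label was checked on its 3 markers. At least 1 UMI of P2ry12, Cx3cr1 or Csf1r was found in 943 of the 982 homeostatic nuclei (96.0%), and UMIs of all 3 in 353 (35.9%). All 3 were seen together in 19.6% of amyloid-DAM, 14.1% of myelin-DAM, 27.4% of MyTE and 18.5% of macrophage nuclei. P2ry12 (ENSMUSG00000036353, protein coding, chromosome 3 from 59216272 to 59262871 in GRCm38) had a UMI in 64.5% of homeostatic nuclei. Neurons, given here as another cell class, had a P2ry12 UMI in 33.0% of nuclei at a median depth of 9105 UMIs. With every nucleus thinned to 500 UMIs the shares were 39.3% and 2.04%. Cx3cr1 (ENSMUSG00000052336, chromosome 9 from 119901616 to 120069879) was in 69.8% of homeostatic nuclei against 9.88% of neurons, and in 42.4% against 0.476% after thinning. Csf1r (ENSMUSG00000024621, chromosome 18 from 61100598 to 61132149) was in 73.5% against 3.59%, and in 45.3% against 0.177% after thinning.

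Mean levels of all 3 markers were higher in homeostatic microglia than in each other subtype. P2ry12 was at 1049 ± 112 CPM (SD, n = 8 libraries) in homeostatic microglia, 597 ± 99.0 (n = 4) in amyloid-DAM, 427 ± 75.9 (n = 4) in myelin-DAM, 311 ± 55.4 (n = 6) in MyTE and 545 ± 165 (n = 5) in macrophages, counting profiles of at least 20 nuclei. The homeostatic level of P2ry12 lay above the other subtype in every library that could be compared. Cx3cr1 was at 1152 ± 109 CPM in homeostatic microglia, 805 ± 144 in amyloid-DAM, 816 ± 232 in myelin-DAM, 433 ± 70.9 in MyTE and 277 ± 85.6 in macrophages. It was higher in homeostatic microglia in 3 of 4 comparisons with myelin-DAM and in every library for the other 3 subtypes. Csf1r was at 1222 ± 120 CPM against 797 ± 84.8, 823 ± 137, 406 ± 49.0 and 852 ± 142 in the same order. Amyloid-DAM profiles came from the 5xFAD and Cnp-/-;5xFAD libraries only, and myelin-DAM profiles from the Cnp-/- and Cnp-/-;5xFAD libraries only.

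The order of levels differed between markers. For P2ry12, the range of mean ± SD in homeostatic microglia lay above all others, and each of the other subtypes overlapped its neighbour in the order. For Cx3cr1, myelin-DAM overlapped amyloid-DAM and, by a narrow margin, homeostatic microglia, and macrophages had the lowest mean. For Csf1r, macrophages, myelin-DAM and amyloid-DAM overlapped, and MyTE was lowest. Tmem119, a membrane protein that separates microglia from other macrophages, was at 132 ± 36.6 CPM in homeostatic microglia, 24.4 to 30.5 in amyloid-DAM, myelin-DAM and MyTE, and 1.49 in macrophages. Siglech, a sialic acid binding lectin, was at 1150 ± 176 CPM, against 498 in amyloid-DAM, 326 in myelin-DAM, 296 in MyTE and 213 in macrophages. Sall1, a transcription factor of microglial identity, was at 338 ± 36.4 CPM and at 19.3 in macrophages. Fcrls went the other way between these 2, at 289 ± 121 CPM in homeostatic microglia and 384 ± 113 in macrophages.

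**Figure D2:**
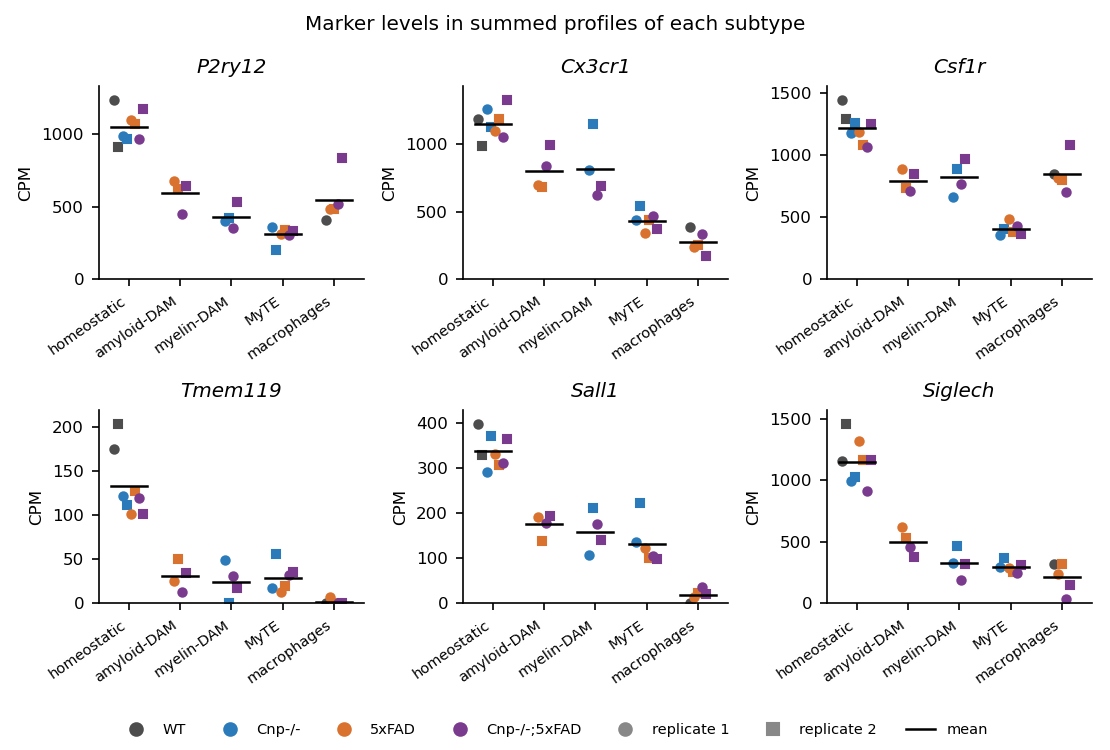
CPM (y axis, from 0) of P2ry12, Cx3cr1, Csf1r, Tmem119, Sall1 and Siglech by subtype (x axis), where each point is the summed nuclei of 1 library with at least 20 nuclei of that subtype and the line is their mean. P2ry12 averages 1049 CPM in homeostatic microglia and 311 to 597 CPM in the other 4 subtypes.

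Among 8311 genes ranked by level in homeostatic microglia over the other subtypes, Myo18b, an unconventional myosin, was first by the log2 ratio of 2.74 with 1 CPM added to both levels, at 152 ± 46.6 CPM against 22.0 ± 16.9 (SD, n = 8 libraries). Tspan18, a tetraspanin, followed among protein coding genes with a log2 ratio of 2.61, then Crybb1, a crystallin found in maturing microglia, at 77.6 ± 21.8 against 13.5 ± 7.19 CPM, and Ecscr with a log2 ratio of 2.40. Selplg, the ligand of P-selectin, was also among the 20 highest, at 988 ± 133 CPM against 262 ± 78.8. The other 15 were Upk1b, Nhs, Mmp28, Tgm2, Cass4, Mdfi, Spns3, Kcnk12, Hspb3, Umps and the uncharacterised loci Gm41556, Gm16118, A830008E24Rik, 8030442B05Rik and Gm3739. Of the 20, 15 were higher in homeostatic microglia in all 8 libraries and 5 in 7. In WT 1 and WT 2 the other subtypes were mostly macrophages, with 31 and 19 nuclei beside 11 and 3 of MyTE. Each DAM state had at most 1 nucleus there, so the comparison differs between WT and mutant libraries.

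The genes with the lowest ratio had their highest mean level in MyTE or macrophages. Kcnq3, a potassium channel, and Dgki, a diacylglycerol kinase, had 0 UMIs in homeostatic nuclei and their highest mean level in MyTE, at 515 and 440 CPM. Tmem178b, Ptprd and Hecw2 had 1, 5 and 1 UMIs and were also highest in MyTE. Cd163, a scavenger receptor of border macrophages, Ms4a7 and Ms4a4a had 0 UMIs and were highest in macrophages, at 617, 446 and 270 CPM. F13a1, the coagulation factor XIII A chain, was at 7.15 CPM in homeostatic microglia and 3861 CPM in macrophages. The core DAM list summed to a mean of 3121 CPM in homeostatic microglia, 9019 in amyloid-DAM and 8041 in myelin-DAM, and 26 of its 29 genes in the table had a homeostatic UMI. Its members ranged from 842 UMIs of Cadm1, an adhesion molecule, to 24 UMIs of Lpl, the lipoprotein lipase, at 19.6 CPM against 262 in amyloid-DAM, and 1 UMI of Gpnmb, at 0.708 CPM against 323 in myelin-DAM. Cadm1 and Gpnmb were named after their values were seen.

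Inside the subtype, none of the 3 markers passed a test between genotypes. P2ry12 was at 1231 and 911 CPM in WT, 989 and 966 in Cnp-/-, 1097 and 1067 in 5xFAD, and 963 and 1169 in Cnp-/-;5xFAD. The highest and the lowest of these 8 values were the WT libraries, so every mutant library lay within the WT range. Effects were estimated in 1 model of the 8 libraries with edgeR's quasi-likelihood test and Benjamini-Hochberg adjustment over 4566 genes, where Cnp loss means the average of its effect with and without the transgenes, and the 5xFAD effect the average with and without Cnp. The log2 effect of Cnp loss on P2ry12 was −0.09 (95% interval −0.35 to 0.18, adjusted p = 0.986) and that of 5xFAD was 0.05 (−0.21 to 0.32, adjusted p = 0.997). Since nuclei were placed in the subtype by the same counts, nuclei with less P2ry12 may stand in another subtype, and these values hold only for nuclei that kept the label.

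Cx3cr1 was at 1183 and 987 CPM in WT, 1256 and 1127 in Cnp-/-, 1093 and 1189 in 5xFAD, and 1054 and 1324 in Cnp-/-;5xFAD. The genotypes overlapped, and the log2 effects were 0.09 (95% interval −0.16 to 0.34) for Cnp loss and 0.02 (−0.23 to 0.27) for 5xFAD. Csf1r was at 1445 and 1291 CPM in WT, 1184 and 1263 in Cnp-/-, 1187 and 1085 in 5xFAD, and 1071 and 1250 in Cnp-/-;5xFAD. Both WT libraries were the highest, but the log2 effects of −0.07 (−0.29 to 0.15) for Cnp loss and −0.18 (−0.40 to 0.04, adjusted p = 0.939) for 5xFAD did not pass the test. Tmem119 had the same order, with 175 and 203 CPM in WT and 101 to 128 CPM in the other 6 libraries. Its log2 differences from WT were −0.67 ± 0.39 (SE) in Cnp-/-, −0.72 ± 0.36 in 5xFAD and −0.74 ± 0.37 in Cnp-/-;5xFAD, and the adjusted p-values from edgeR were 0.835, 0.891 and 1.0.

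The wider homeostatic signature was a list of 28 gene symbols, of which 27 were in the table, and all 27 genes were tested. None passed for Cnp loss or for 5xFAD, beside 0.11% and 0.0657% of all 4566 genes tested. Their median log2 effect was −0.12 for Cnp loss, with 3 of 27 above 0, against −0.0036 over all genes. For 5xFAD it was −0.08, with 10 of 27 above 0, against 0.035 over all genes. Sall1 was at 397 and 329 CPM in WT and 292 to 372 CPM in the other 6 libraries, and Selplg at 1192 and 949 CPM in WT and 771 to 1126 CPM elsewhere. Summed over the list, WT libraries were at 15551 and 17124 CPM, Cnp-/- at 12727 and 13188, 5xFAD at 14441 and 14071, and Cnp-/-;5xFAD at 12100 and 15265. Cst3, a secreted protease inhibitor, made a large part of that spread, from 49.5 CPM in Cnp-/- 2 to 3025 CPM in WT 2. Without Cst3 the sums were 14765 and 14100 in WT and 11817 to 14171 in the other libraries, so the ranges overlapped.

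Among single nuclei, the signature took a median of 1.40% of a homeostatic nucleus's UMIs, with a 10th percentile of 0.824% and a 90th of 2.03%. Medians by library ran from 1.21% in Cnp-/- 2 to 1.60% in WT 2. Medians were 0.869% in amyloid-DAM, 0.657% in myelin-DAM, 0.497% in MyTE and 0.508% in macrophages.

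With the 5xFAD transgenes, 3 genes rose in homeostatic microglia and none fell, 0.0657% of the genes tested. They were Cacna1a, Kcnma1 and Eef1a1. At an unadjusted p under 0.05 there were 271 genes, 5.94% of those tested. The count was 2 without either 5xFAD library or either Cnp-/-;5xFAD library, 7 without Cnp-/- 1, 8 without WT 1 and 9 without WT 2.

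Cacna1a (ENSMUSG00000034656, chromosome 8 from 84388440 to 84640246) encodes the pore of the P/Q-type calcium channel and is best known from neurons. In homeostatic microglia it was at 0 and 12.7 CPM in WT, 162 and 198 in Cnp-/-, 417 and 429 in 5xFAD, and 363 and 378 in Cnp-/-;5xFAD, from 0 and 1, 20 and 16, 103 and 74, and 64 and 56 UMIs. The 4 transgenic libraries lay above the 4 others without overlap, and among the others both Cnp-/- libraries lay above both WT libraries. Pooled over 4 libraries each, the level was 5.28-fold higher with the transgenes (95% counting interval 3.74 to 7.65). In edgeR the log2 effect was 3.83 ± 0.35 (SE, adjusted p = 0.00203), a fitted value that depends on the prior count, since WT held 1 UMI. It passed the test under all 14 alternatives that tested it, with adjusted p-values up to 0.0159.

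The Cacna1a UMIs were spread over many nuclei. At least 1 was found in 1 of 203 WT nuclei (0.493%), 31 of 170 Cnp-/- nuclei (18.2%), 135 of 349 5xFAD nuclei (38.7%) and 90 of 260 Cnp-/-;5xFAD nuclei (34.6%), with at most 4 in 1 nucleus. Thinned to 500 UMIs the shares were 0.139%, 7.19%, 19.6% and 17.3%, so the order held at equal depth. Mature oligodendrocytes, taken as cells with little of it, gave 0.0740% to 0.515% after thinning in the 4 genotypes, at median depths of 1326.5 to 1792 UMIs against 1082 to 1343 in homeostatic nuclei. In amyloid-DAM, Cacna1a was at 1658 to 1948 CPM, and in neurons at 805 to 994 CPM in all 8 libraries.

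Kcnma1 (ENSMUSG00000063142, chromosome 14 from 23289431 to 24014491), the pore of the large-conductance calcium-activated potassium channel, was listed at 0 in both WT libraries and at 24.3 and 0 CPM in Cnp-/-. It was at 288 and 215 CPM in 5xFAD and 408 and 243 CPM in Cnp-/-;5xFAD. The transgenic libraries held 216 UMIs and the others 3, all 3 in 1 nucleus of Cnp-/- 1, a ratio of 47.4 with a 95% counting interval of 16.0 to 231 (adjusted p in edgeR = 0.00682). No alternative among 14 lost the call, the highest adjusted p being 0.0425. A UMI was found in 79 of 349 5xFAD nuclei (22.6%), 73 of 260 Cnp-/-;5xFAD nuclei (28.1%) and 0 of 203 WT nuclei. By counting alone, with nuclei of both WT libraries pooled, that 0 allows up to 1.48% of WT nuclei with a UMI at this depth. This limit leaves out differences between libraries and any effect of removing ambient transcripts, and it sets no limit on expression. After thinning to 500 UMIs the transgenic shares were 10.0% and 12.3%, and mature oligodendrocytes of the 4 genotypes gave 0.0403% to 0.0820%. Amyloid-DAM held 346 to 671 CPM of Kcnma1, neurons 1353 to 1603 CPM and astrocytes 92.4 to 315 CPM.

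Eef1a1, a translation elongation factor, was at 33.9 and 50.6 CPM in WT, 24.3 and 0 in Cnp-/-, 235 and 203 in 5xFAD, and 193 and 223 in Cnp-/-;5xFAD. The 4 transgenic libraries were all higher, with a pooled ratio of 7.52 (95% counting interval 4.35 to 14.1) and a log2 effect of 3.11 ± 0.42 (SE, adjusted p in edgeR = 0.0265). Eef1a1 has near-identical processed copies in the genome that can share its reads, which makes its level uncertain. Its call held in 8 of 14 alternatives.

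Neurons express Cacna1a and Kcnma1 too, so neuron markers are given beside them. The 8 neuron markers summed to 23744 to 28648 CPM in neurons and 0 to 49.5 CPM in homeostatic nuclei, with at most 8 UMIs per library. Summed by genotype they were at 0 in both WT libraries, 16.2 and 49.5 CPM in Cnp-/-, 32.4 and 34.8 in 5xFAD, and 0 and 20.3 in Cnp-/-;5xFAD. Snap25, Rbfox3, Grin2a and Nrgn had 0 UMIs in all 982 nuclei. In Cnp-/-;5xFAD 1, where all 8 neuron markers were at 0, Cacna1a and Kcnma1 were at 363 and 408 CPM. In WT 1 and WT 2, where the markers were also at 0, Cacna1a was at 0 and 12.7 CPM and Kcnma1 at 0 in both. The part of neuronal RNA in these levels was not tested.

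Some genes had 0 UMIs in a library although the other libraries held many. Over all genes, 178 combinations of gene and library had 0 UMIs where more than 10 were expected from the other libraries, and WT 1 held 71 of them. Among the called genes, Cacna1a in WT 1 (67.1 expected), Kcnma1 in WT 1 (44.0), WT 2 (15.0) and Cnp-/- 2 (15.3), Ipcef1 in WT 1 (35.4) and Eef1a1 in Cnp-/- 2 (12.2) were such zeros. Among the other genes named, Ctnna3 in Cnp-/- 1 (15.6), Gpc5 in WT 1 (28.3), Cnp-/- 1 (15.7) and Cnp-/-;5xFAD 2 (19.2), Nhs in 5xFAD 1 (22.3) and Flt1 in WT 1 (11.2) were too. The counts were deposited after ambient transcripts had been removed library by library, and the part of that step in these zeros was not tested. All 3 genes called for 5xFAD are among the 168 genes with such a zero. The expected counts pool the other libraries of all genotypes, so a difference between genotypes can by itself put a gene among them. Kcnma1, for example, had 216 UMIs in the transgenic libraries and 3 in the others.

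Cnp loss changed 5 genes, 0.11% of those tested, with Cers6, Rps6ka3 and Cacna1a higher and Pde4d and Nav3 lower. The adjusted p-values of these 5 genes ran from 0.0302 to 0.0476 in edgeR. At an unadjusted p under 0.05 there were 246 genes, 5.39% of those tested. No gene passed when Cnp-/- 1, either 5xFAD library or either Cnp-/-;5xFAD library was left out. There were 3 calls without Cnp-/- 2, 4 without WT 2 and 9 without WT 1.

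Cers6 (ENSMUSG00000027035, chromosome 2 from 68861441 to 69114282), a ceramide synthase, was at 14.5 and 25.3 CPM in WT, 186 and 173 in Cnp-/-, 60.7 and 34.8 in 5xFAD, and 232 and 257 in Cnp-/-;5xFAD. All 4 libraries with Cnp loss lay above the 4 others, with a pooled ratio of 5.95 (95% counting interval 3.86 to 9.48) and a log2 effect of 2.79 ± 0.34 (SE, adjusted p in edgeR = 0.0302). A UMI of Cers6 was seen in 5 of 203 WT, 31 of 170 Cnp-/-, 19 of 349 5xFAD and 63 of 260 Cnp-/-;5xFAD nuclei. In myelin-DAM it was at 818 and 318 CPM in Cnp-/- and 414 and 425 CPM in Cnp-/-;5xFAD.

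Rps6ka3, which encodes the kinase RSK2 of the ERK pathway, was at 48.5 and 50.6 CPM in WT, 413 and 260 in Cnp-/-, 101 and 122 in 5xFAD, and 210 and 196 in Cnp-/-;5xFAD. The groups did not overlap, and the pooled ratio was 3.07 (95% counting interval 2.25 to 4.22, log2 effect 1.83 ± 0.27, SE, adjusted p in edgeR = 0.0411). Nav3, a microtubule-binding navigator protein, was at 3892 and 3367 CPM in WT, 2173 and 1932 in Cnp-/-, 2928 and 2859 in 5xFAD, and 2357 and 2161 in Cnp-/-;5xFAD. It was lower in all 4 libraries with Cnp loss and fell by 0.59 on the log2 scale (SE 0.09, adjusted p in edgeR = 0.0411). Nav3 in myelin-DAM was at 742 to 818 CPM, below every homeostatic value. Of 14 alternatives, the calls for Cnp loss held in 8 for Pde4d, 7 for Cers6, 5 for Rps6ka3, 4 for Nav3 and 3 for Cacna1a.

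Pde4d (ENSMUSG00000021699, chromosome 13 from 108449948 to 109953461), a phosphodiesterase that breaks down cyclic AMP, was at 320 and 367 CPM in WT, 64.9 and 173 in Cnp-/-, 207 and 122 in 5xFAD, and 5.66 and 6.75 in Cnp-/-;5xFAD. The lowest values were those of the combined genotype, with 1 UMI in each library, while Cnp-/- and 5xFAD overlapped. Its log2 effect of Cnp loss was −3.08 ± 0.43 (SE, adjusted p in edgeR = 0.0411), and the 4 libraries with Cnp loss overlapped the 4 without. Pde4d had 0 UMIs in amyloid-DAM and myelin-DAM of both Cnp-/-;5xFAD libraries as well. In neurons it was at 1009 to 1514 CPM in all 8 libraries, in astrocytes at 51.0 to 456 and in mature oligodendrocytes at 2.05 to 127. Cers6, Rps6ka3 and Nav3 were at 223 to 268, 166 to 216 and 1686 to 2156 CPM in neurons. The fifth gene, Cacna1a, passed with 2.59 ± 0.39 (SE, adjusted p = 0.0476), but its pooled levels with and without Cnp loss were 295 and 253 CPM and the groups overlapped, so the call rests on the contrast between Cnp-/- and WT.

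**Figure D3:**
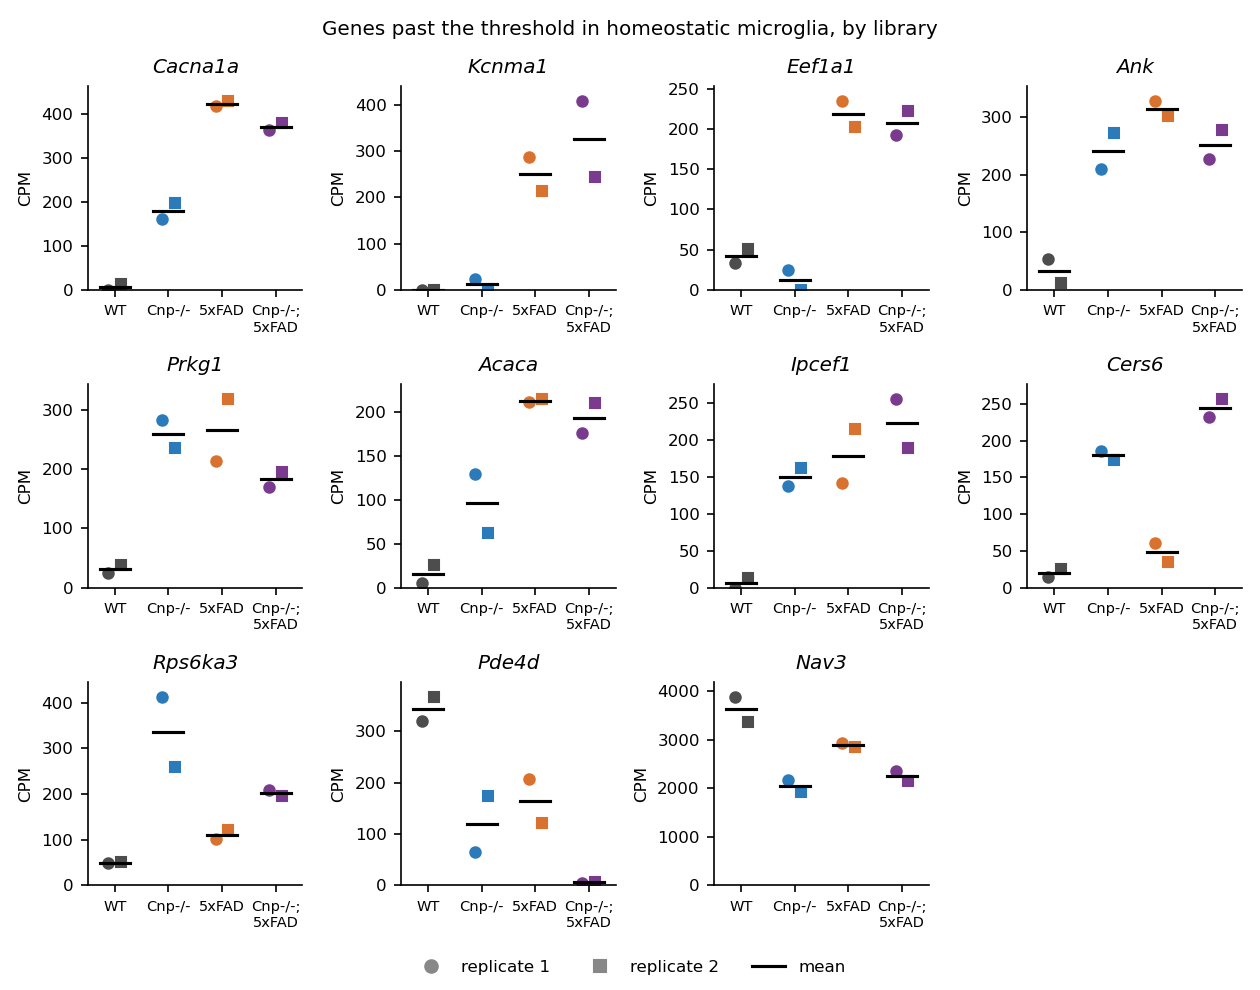
CPM (y axis) of the genes that passed a test in homeostatic microglia, by genotype on the x axis, with 1 point per library and a line at the mean of 2. Cacna1a and Kcnma1 reach 363 to 429 and 215 to 408 CPM in the 4 transgenic libraries, and Cers6 173 to 257 CPM in the 4 libraries with Cnp loss.

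Each mutant was also set against WT. The 3 comparisons share the WT libraries and are therefore not independent, and a WT value near 0 enters all of them. In Cnp-/-, 4 genes passed, 0.0876% of those tested. Rps6ka3 was 7.19-fold higher (95% counting interval 4.02 to 13.8), Prkg1 9.44-fold higher (4.46 to 23.0), Cacna1a had 36 UMIs against 1, and Nav3 fell by 0.83 on the log2 scale (SE 0.12), each with an adjusted p of 0.0470 in edgeR. Leaving out any 1 of the 6 mutant libraries left 0 calls, leaving out WT 2 left 1, and leaving out WT 1 gave 8. Prkg1, a cGMP-dependent kinase, was at 24.2 and 38.0 CPM in WT, 284 and 235 in Cnp-/-, 215 and 319 in 5xFAD, and 170 and 196 in Cnp-/-;5xFAD. All 6 mutant libraries lay above WT, although 14 of the 54 Prkg1 UMIs in Cnp-/- came from 1 nucleus. Neurons held Prkg1 at 760 to 1101 CPM.

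In 5xFAD, 6 genes passed, 0.131% of those tested, all higher. The count was 1 when any 1 of the 4 transgenic libraries was left out, 3 without WT 1, 7 without either Cnp-/- library and 8 without WT 2. Ank, a pyrophosphate transporter of the core DAM list, was at 53.3 and 12.7 CPM in WT, 211 and 272 in Cnp-/-, 328 and 302 in 5xFAD, and 227 and 277 in Cnp-/-;5xFAD. Its ratio of 5xFAD to WT was 7.54 (95% counting interval 4.18 to 15.0, adjusted p in edgeR = 0.0337), and all 6 mutant libraries lay above WT. Prkg1 was 9.18-fold higher (adjusted p = 0.0337 in edgeR) and Kcnma1 at least 24.5-fold higher, by a floor of 3 counts over both WT libraries. Acaca, the acetyl-CoA carboxylase of fatty acid synthesis, had 89 UMIs against 3, a ratio of 20.2 with a counting interval of 6.69 to 99.7. Ipcef1, a partner of the cytohesin exchange factors, had 72 against 1, and Cacna1a 177 against 1.

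In Cnp-/-;5xFAD, 5 genes passed, 0.11% of those tested. The count was 1 without either Cnp-/-;5xFAD library, 9 without either Cnp-/- library, 6 without WT 1, 7 without WT 2 and 5 without either 5xFAD library. Cers6 was 13.9-fold higher than in WT (95% counting interval 5.71 to 44.0, adjusted p in edgeR = 0.0233), Kcnma1 at least 31.6-fold, and Cacna1a and Ipcef1 had 120 and 73 UMIs against 1 each. Pde4d fell, with 2 UMIs against 95, a ratio of 0.0185 (0.00221 to 0.0687, adjusted p in edgeR = 0.0149). Ipcef1 was at 0 and 12.7 CPM in WT, 138 and 161 in Cnp-/-, 142 and 215 in 5xFAD, and 255 and 189 in Cnp-/-;5xFAD, so every mutant library lay above WT. Acaca had the same order, from 4.85 and 25.3 CPM in WT to 61.9 to 215 CPM in the 6 others.

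Whether the effect of Cnp loss differed with the transgenes was tested as an interaction. No gene passed in edgeR (0% of those tested) or in DESeq2, and 222 genes, 4.86%, had an unadjusted p under 0.05. There were 2 calls without WT 1 and 1 without WT 2.

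Genes of the DAM state were followed in fixed lists. Of 30 core DAM genes 13 were tested, and none passed for Cnp loss or 5xFAD, beside 0.11% and 0.0657% of all genes. Their median log2 effects were 0.14 for Cnp loss and 0.26 for 5xFAD, against −0.0036 and 0.035 over all genes, and 8 and 10 of 13 lay above 0. Ank alone of this list passed for 5xFAD over WT, where 0.131% of all genes did. Summed over the 29 genes in the table, WT libraries were at 1987 to 2759 CPM, Cnp-/- at 2935 to 3089, 5xFAD at 3130 to 3602 and Cnp-/-;5xFAD at 3206 to 4262. Both WT libraries thus lay below the 6 mutant libraries in this sum, which was not tested. Trem2, the lipid-sensing receptor of DAM, was at 145 and 291 CPM in WT, 219 and 173 in Cnp-/-, 174 and 273 in 5xFAD, and 176 and 257 in Cnp-/-;5xFAD, with no order between genotypes. Apoe, the main lipid carrier of the brain, was at 67.9 and 127 CPM in WT, 397 and 136 in Cnp-/-, 170 and 267 in 5xFAD, and 221 and 480 in Cnp-/-;5xFAD. Both WT libraries were the lowest, but the log2 effects of 1.18 ± 0.39 (SE) for Cnp loss and 0.79 ± 0.38 for 5xFAD had adjusted p-values of 0.667 and 0.862 in edgeR.

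The lists of genes higher in amyloid-DAM and in myelin-DAM had been chosen from these samples and are not independent evidence. Of 14 amyloid-DAM genes 11 were tested. Nav3 alone passed for Cnp loss and none for 5xFAD, beside 0.11% and 0.0657% of all genes, and the medians were −0.59 and 0.61, against −0.0036 and 0.035 over all genes. The median was 0.21 for 5xFAD over WT and −0.04 for Cnp-/-;5xFAD over WT. The summed level of the list was 18061 to 18483 CPM in WT, 12371 to 13141 in Cnp-/-, 17094 to 17110 in 5xFAD and 13301 to 15394 in Cnp-/-;5xFAD, so median and sum differed in direction for 5xFAD over WT. Cst3 stands in this list too, at 785 and 3025 CPM in WT and 672 and 1096 in 5xFAD. The lower sum in 5xFAD thus rests in part on Cst3 in WT 2, and the sum without it is not given here. Ctnna3, a catenin of cell adhesion, came closest for 5xFAD, at 9.69 and 63.3 CPM in WT, 0 in both Cnp-/- libraries, 174 and 151 in 5xFAD, and 193 and 203 in Cnp-/-;5xFAD. The transgenic libraries did not overlap with the rest, its adjusted p was 0.0569 in edgeR, and the 0 in Cnp-/- 1 is 1 of the zeros where more than 10 UMIs were expected. Of 18 myelin-DAM genes 8 were tested, none passed, and 7 of 8 lay above 0 for Cnp loss with a median of 0.39, against −0.0036 over all genes. Abca1, a cholesterol efflux pump, was at 397 and 329 CPM in WT, 705 and 693 in Cnp-/-, 454 and 534 in 5xFAD, and 453 and 709 in Cnp-/-;5xFAD (log2 effect of Cnp loss 0.58 ± 0.17, SE, adjusted p in edgeR = 0.539).

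Lists of identity and signalling genes had no call, which at 0.11% and 0.0657% of all genes called for Cnp loss and 5xFAD says nothing particular about them. Of 36 microglial transcription factors 29 were tested and none passed, with medians of −0.03 for Cnp loss and −0.01 for 5xFAD. Spi1, which encodes PU.1, was at 285 to 422 CPM over the 8 libraries, and Irf8, an interferon regulatory factor, at 381 to 470 CPM. None of 17 TGF-beta signalling genes passed, and Tgfbr1, the kinase receptor that holds microglia in the homeostatic state, was at 2430 to 3594 CPM. None of 14 CSF1R and cytokine receptor genes or of 11 purinergic and chemokine receptor genes passed, with medians between −0.12 and 0.04. None of 19 phagocytosis genes passed, and Mertk, a receptor for dying cells, was at 2407 to 3019 CPM.

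Genes of lipid handling (14 tested), lysosomes (25), complement (5), inflammation (8), immediate early and stress responses (6) and cell cycle (2) had no call for either effect, as lists of this size would at 0.11% and 0.0657% of all genes called. In the antigen presentation and interferon list none of 14 genes passed, while 13 of 14 had a log2 5xFAD effect above 0, with a median of 0.35 against 0.035 over all genes. The list summed to 1316 to 1411 CPM in WT, 1346 to 1647 in Cnp-/-, 1672.5 to 1705 in 5xFAD and 1949 to 2067 in Cnp-/-;5xFAD. The transgenic libraries thus lay above the others in this sum, which was not tested. B2m, the light chain of MHC class I, was at 136 and 165 CPM in WT, 64.9 and 149 in Cnp-/-, 154 and 162 in 5xFAD, and 136 and 223 in Cnp-/-;5xFAD, which overlapped. Of 38 Alzheimer risk genes of microglia 27 were tested and none passed, with medians of 0.07 and −0.04. Bin1, a membrane-bending adaptor, was at 848 to 1134 CPM, and Inpp5d, a lipid phosphatase of immune receptors, at 2453 to 3275 CPM.

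**Figure D4:**
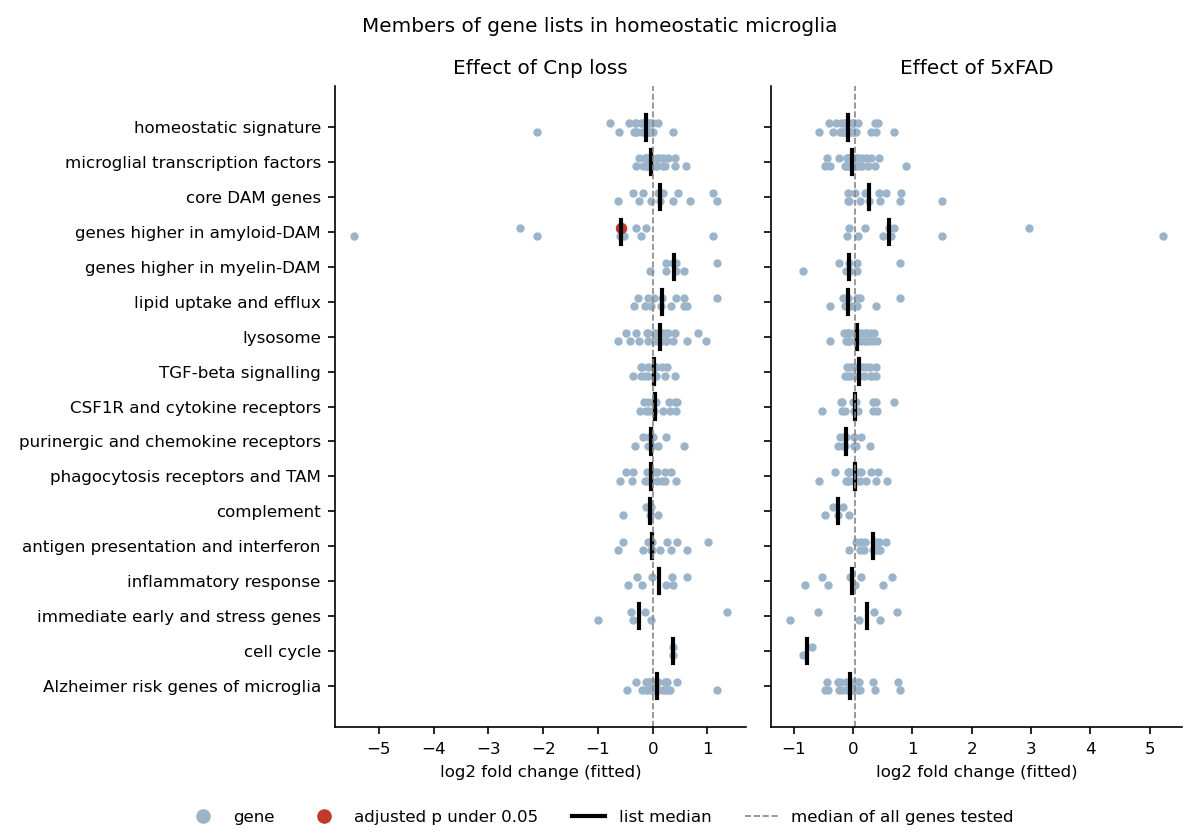
Log2 effects of Cnp loss (left) and of 5xFAD (right) on the tested genes of each list in homeostatic microglia, with the log2 effect on the x axis and 1 row per list. Each dot is 1 gene and the marked line its list's median; the homeostatic signature has medians of −0.12 and −0.08 and no gene that passed.

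Markers of other cells were summed by library. Macrophage markers had UMIs for 5 of 8 genes, with Cd163, Ms4a7 and Lyve1 at 0, and summed to 12.7 to 29.1 CPM in WT, 56.7 to 86.7 in Cnp-/-, 69.6 to 72.9 in 5xFAD and 62.3 to 67.5 in Cnp-/-;5xFAD, against 9971 to 12810 CPM in macrophages. The 2 WT sums were the lowest. Dab2, named after its value was seen, had 49 homeostatic UMIs, Mrc1 and F13a1 had 11 and 9, and the other members fewer. The mean macrophage marker sum was 142 CPM in amyloid-DAM and 211 in myelin-DAM. Pericyte markers, all 3 with UMIs, summed to 0 to 9.69 CPM in WT, 48.6 to 61.9 in Cnp-/-, 12.1 to 34.8 in 5xFAD and 5.66 to 13.5 in Cnp-/-;5xFAD. Endothelial markers, 2 of 4 with UMIs, summed to 88.6 to 92.1 CPM in WT, 122 to 136 in Cnp-/-, 58.0 to 89.1 in 5xFAD and 85.0 to 101 in Cnp-/-;5xFAD. Both sums were highest in Cnp-/-. The endothelial sum came from Flt1 and Pecam1 alone, and its mean was 210 CPM in amyloid-DAM and 441 in myelin-DAM. These 2 genes went opposite ways in Cnp-/- over WT, 1 with a log2 effect of 4.25 and the other of −1.11, and neither passed. Flt1 was at 0 in WT 1, where 11.2 UMIs were expected. The sum therefore shows no shared rise of endothelial markers in Cnp-/-. The part of these markers in the results above was not tested. Oligodendrocyte markers, all 8 with UMIs, summed to 127 to 233 CPM in WT, 0 to 203 in Cnp-/-, 186 to 267 in 5xFAD and 189 to 255 in Cnp-/-;5xFAD, against 9315 to 12796 CPM in MyTE. Astrocyte markers summed to 342 to 859 CPM, with the highest value in 5xFAD 1, where Gpc5, which stands in both the astrocyte and the amyloid-DAM list, was at 535 CPM against 0 to 63.3 in the other libraries, some of them zeros of the kind described above. The astrocyte markers Aqp4, Gfap and Gja1 had 0, 1 and 2 UMIs in all homeostatic nuclei.

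The same model on all microglia without macrophages, which contain the homeostatic nuclei and more UMIs, called 130 of 8185 genes for Cnp loss (1.59%) and 32 for 5xFAD (0.391%). The log2 effect of Cnp loss on P2ry12 was −0.53 ± 0.13 (SE, adjusted p in edgeR = 0.0929) in all microglia and −0.09 in homeostatic microglia. For Csf1r it was −0.36 and −0.07, and for Cx3cr1 −0.05 and 0.09. The 2 sets of values share nuclei, and the difference between them was not tested.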

How the data were processed

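The deposited values were UMI counts per gene and nucleus, which the authors had made with Cell Ranger 6.1.2 on the mm10 reference, followed by removal of ambient transcripts with CellBender, filters on genes and transcripts per nucleus, and clustering. Whether intronic reads were counted and how doublets were treated is not given in the sources used here. Here counts were summed over the homeostatic nuclei of each library, the replicate. Genes were filtered by filterByExpr, which left 4566, scaled by TMM and tested two-sided in edgeR 4.0.16 (quasi-likelihood, 1 mean per genotype, R 4.3.3) with a Benjamini-Hochberg threshold of 0.05. Shares of nuclei were compared by exact permutation tests adjusted over 4 comparisons. Ratios with counting intervals (95%, exact) cover counting error only. Thinning took each nucleus to 500 UMIs. Positions are those of GENCODE for GRCm38.

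The genes named are the 3 markers, the 20 highest and 10 lowest against the other subtypes (mean over libraries, with 1 CPM added), all called genes, and the called or first 4 members of each list. The homeostatic group, lists and tests were chosen with earlier results of these data known. Alternatives were DESeq2 1.42.0, its size factors, no filter, the replicate number as a block, nuclei with at least 1000 UMIs, 48 nuclei per library, only the 4 libraries of a comparison, and single libraries left out. The fits were tested on simulated data. The symbol Clec7a was not analysed here. Some genes that the naming rule would list are not reported here.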

Additional observations from a re-analysis of the deposited data

Results flagged for a closer look

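Kcnma1 in the 4 homeostatic profiles without the 5xFAD transgenes had 1 library apart from the others, since Cnp-/- 1 was at 24.3 CPM and the other 3 at 0. The gap to the nearest made up 1.0 of the range, as it must when 3 values are tied at 0, and rests on 3 UMIs of 1 nucleus. P2ry12 in the 4 profiles with Cnp loss had its highest value in Cnp-/-;5xFAD 2, at 1169 CPM against 963 to 989 in the other 3, a gap of 0.874 of the range. Both exceed Dixon's critical value for 4 samples. Of 36 sets of 4 libraries examined, 2 passed that limit, and chance passes about 1 in 20. Their causes were not tested.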

How the results depend on the processing

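Counts of called genes are given in the order Cnp loss, 5xFAD, interaction, and Cnp-/-, 5xFAD and Cnp-/-;5xFAD over WT, where the values reported were 5, 3, 0, 4, 6 and 5. Without the filter on low counts they were 27, 60, 12, 46, 35 and 30. DESeq2 gave 5, 14, 0, 6, 9 and 14, nuclei with at least 1000 UMIs 5, 5, 2, 4, 5 and 5, and 48 nuclei per library 2, 3, 0, 1, 2 and 3. With only the 4 libraries compared, the 3 comparisons with WT gave 0, 0 and 2. With the replicate number as a block the counts were 0, 2, 0, 0, 1 and 3. Libraries of the same number deviated together in 3 of 6 pairs of genotypes (correlations of −0.0639 to 0.0824). Counting noise lowers such correlations, so they cannot tell whether the numbers pair the libraries. Leaving out the genes listed at 0, an alternative chosen after seeing the data, removes all 3 genes called for 5xFAD by construction and gave 0 there, and 3 and 2 for 5xFAD and Cnp-/-;5xFAD over WT. With 1 library left out, where a lone library is assumed to vary like the others, the counts ranged over 0 to 9, 2 to 9, 0 to 2, 0 to 8, 1 to 8 and 1 to 9. The cause was not tested. The size factors of DESeq2 left all 6 counts within 1.5-fold.

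With 1 library left out, the difference in homeostatic nuclei per 1000 ranged from 6.59 to 11.2 for 5xFAD and from −8.56 to −1.99 for Cnp loss, and that in their share from −26.6 to −13.6 and from −25.4 to −12.9 points. The sign of an effect near 0 turned for P2ry12 (Cnp loss −0.175 to 0.0324, 5xFAD −0.0203 to 0.192) and Cx3cr1 (5xFAD −0.0414 to 0.107, −0.0237 with 48 nuclei per library). Cacna1a and Kcnma1 kept their 5xFAD calls in all 14 alternatives that tested them. The smallest profile, WT 2, held 48 nuclei and 79010 UMIs, so its low genes rest on few counts.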

Other observations

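Among genes outside the lists leading the comparisons, the complement genes C1qa, C1qb and C1qc, which encode the chains of the initiator C1q, had their highest homeostatic value in the same library, WT 2, at 519, 671 and 544 CPM against 199 to 334, 162 to 342 and 178 to 384 CPM in the other 7. WT 2 was the library with the fewest homeostatic nuclei. Picalm, a clathrin adaptor among the Alzheimer risk genes, was at 1120 and 1759 CPM in WT, 1257 and 1214 in Cnp-/-, 1025 and 905 in 5xFAD, and 997 and 959 in Cnp-/-;5xFAD. The 4 transgenic libraries were the lowest, with a log2 5xFAD effect of −0.44 ± 0.14 (SE) and an adjusted p of 0.588 in edgeR, which missed the threshold. Lrp1, a lipoprotein receptor, was at 519 and 367 CPM in WT, 478 and 421 in Cnp-/-, 668 and 650 in 5xFAD, and 459 and 635 in Cnp-/-;5xFAD, with a log2 5xFAD effect of 0.39 ± 0.16 (SE) and an adjusted p of 0.763 in edgeR. These genes were chosen after their values were seen.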
